A study of Mus musculus with 9 samples.

Results

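The 9 genes of iron and haem handling described here, Tfrc, Trf, Slc11a1, Slc40a1, Fth1, Ftl1, Hmox1, Blvra and Blvrb, were compared across 3 populations of sorted phagocytes of the mouse peritoneal wall. They were taken by symbol from the deposited expression table, which listed all 9 of them among 28764 symbols, and all 9 passed the filter on low values. Every library came from the F1 cross of Cx3cr1gfp/+ and Ccr2rfp/+ reporter mice. Each sort gave both CCR2-RFP and CX3CR1-GFP cells, so with sorts read as animals all 3 populations, the reference included, carried both reporter alleles. In each allele the fluorescent protein stands in place of the receptor's coding sequence. The age of the animals is not given in the sources used here. Mice received 50 µg of labelled dextran by vein 1 day before, were perfused, and the peritoneal wall was digested for 20 minutes. Double-negative cells (no reporter, no surface MHC class II, dextran taken up) were 85 to 90% of the CD11b-positive cells that lacked Ly6G and are labelled as the majority of sessile resident macrophages. CCR2-RFP cells (MHC class II positive; 10 to 15%) are labelled as migratory tissue monocytes, and CX3CR1-GFP cells (MHC class II positive; 0.5 to 1.5%) as further sessile resident macrophages. Each population had 3 libraries, from sorts labelled 1, 2A and 2B.

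Macrophages recycle iron. They take up transferrin-bound iron through the transferrin receptor (Tfrc) and haem from dying red cells. Haem oxygenase (Hmox1) opens the haem ring, and biliverdin reductase A (Blvra) reduces the product biliverdin to bilirubin. Blvrb encodes biliverdin reductase B, which is not placed at that step here. The freed iron is stored in ferritin shells of heavy and light chains (Fth1, Ftl1) or released through ferroportin (Slc40a1), the known iron exporter of mammalian cells. Slc11a1 (NRAMP1) moves divalent metal out of the phagosome, and Trf encodes transferrin, the iron carrier of plasma. Iron regulatory proteins bind a hairpin, the iron-responsive element, in several of these mRNAs: in the 5′ untranslated region they hold back translation, and in the 3′ untranslated region of the Tfrc mRNA they protect the message from decay.

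The hairpins are shown because they sort the genes by how iron is known to control them, which an mRNA level sees only in part. Protein-coding transcripts of GENCODE M21 (GRCm38, the same assembly as mm10) were searched on the transcript strand alone for a C, 5 bases, the loop CAGTGN and 5 more bases, where the bases before the loop pair with those after it and G with T counts as a pair. Of the 9 genes, 4 held a match: Slc40a1, Ftl1 and Fth1 in the 5′ untranslated region and Tfrc at 4 sites of its 3′ untranslated region. Among 21866 protein-coding genes, 0.142% held such a match in a 5′ and 0.59% in a 3′ untranslated region. Each line gives 29 bases, 5′ to 3′, with the 6 loop bases in capitals.
Slc40a1: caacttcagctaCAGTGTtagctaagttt
Ftl1: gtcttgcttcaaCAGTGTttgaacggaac
Fth1: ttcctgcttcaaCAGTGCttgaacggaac
Tfrc site 1: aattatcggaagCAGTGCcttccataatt
Tfrc site 2: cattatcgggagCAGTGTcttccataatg
Tfrc site 3: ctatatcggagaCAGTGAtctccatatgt
Tfrc site 4: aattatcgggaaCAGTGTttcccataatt
The Slc40a1 site lies at chr1:45925465-45925493 (minus strand), the Ftl1 site at chr7:45459779-45459807 (minus strand) and the Fth1 site at chr19:9982732-9982760 (plus strand). The 4 Tfrc sites lie on the plus strand at chr16:32631219-32631247, chr16:32631598-32631626, chr16:32631663-32631691 and chr16:32631710-32631738. The hairpins of the 2 ferritin genes differ at 3 of 29 bases. The other 5 genes held no match to these letters.

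Values are TPM, transcript abundance corrected for length and scaled to a common total, as mean ± SD over 3 libraries; fold changes are differences of log2(TPM + 1). Differences were tested with limma across 10136 genes and called at a Benjamini-Hochberg adjusted p below 0.05; the p-values measure the spread between these sorted samples. Depth is unknown, because read numbers cannot be had from TPM, and the sum of listed values was 278579 to 382828 TPM. Ccr2 was 95.4, 111 and 115 TPM in CCR2-RFP libraries and 1.65 to 6.68 in the others, and Cx3cr1 was 4.13 to 16.4 TPM in CX3CR1-GFP libraries and listed at 0 elsewhere; a description field that names the other reporter population for 6 samples was not followed. Skeletal muscle genes set apart the sort 2A libraries of CCR2-RFP (summed 757 TPM, against 37.7 and 32.2 in the other two) and CX3CR1-GFP cells (1284 TPM, against 225 and 161); double-negative libraries held 216 to 276 TPM. Rescaling moved the balance of calls over all genes: the share of called genes that were higher in the first population was 60.2% as deposited and 44.0 to 52.7% under 4 other scalings for CCR2-RFP against double-negative cells, 42.0% and 47.0 to 69.6% for CX3CR1-GFP against double-negative cells, and 34.1% and 45.2 to 61.8% for CX3CR1-GFP against CCR2-RFP cells.

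All 9 genes were highest in double-negative macrophages. In CCR2-RFP against double-negative cells 8 of the 9 were called lower and none higher, where 9.88% of all genes tested were called lower, 14.9% higher and 24.8% in either direction. Without the muscle-rich sort 2A libraries 6 were called, Slc11a1 (adjusted p = 0.0831) and Fth1 (0.0503) being lost. Every CCR2-RFP library lay below every double-negative library for all 9 genes, as for 16.9% of all genes tested. This count was 9 under each of 4 other scalings, where the share of all genes was not counted. The median log2 fold change of the 9 was -1.35, against 0.086 over all genes tested. Slc40a1, Tfrc, Blvrb, Trf and Hmox1 fell by more than 2-fold on the log2(TPM + 1) scale, and the ferritin chains and Slc11a1 by less. The 10 macrophage markers moved in the same direction: 9 of 10 were called lower in CCR2-RFP cells, and their summed level was 732 to 986 TPM there and 1936 to 2163 TPM in double-negative cells. Monocyte markers, a list that holds the sorted gene Ccr2, went the other way, with 3 of 7 called higher in CCR2-RFP cells (summed 2302 to 2795 against 1168 to 1558 TPM). So did dendritic cell markers, with 5 of 7 tested and 4 called higher (13.3 to 21.2 against 2.40 to 5.07 TPM). These 4 genes passed the filter only with their CCR2-RFP libraries counted, so the filter itself favoured calls in that direction. The other one tested, Zbtb46, was not called, at 2.07 ± 0.467 TPM in CCR2-RFP and 2.43 ± 0.522 TPM in double-negative cells. Mitochondrially encoded mRNA, a measure of RNA quality, summed to 7491 to 10259 and 12898 to 19514 TPM. The part of these markers in the result was not tested, and in sorted bulk samples fewer cells of a type and less RNA per cell cannot be told apart.

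**Figure D1:**
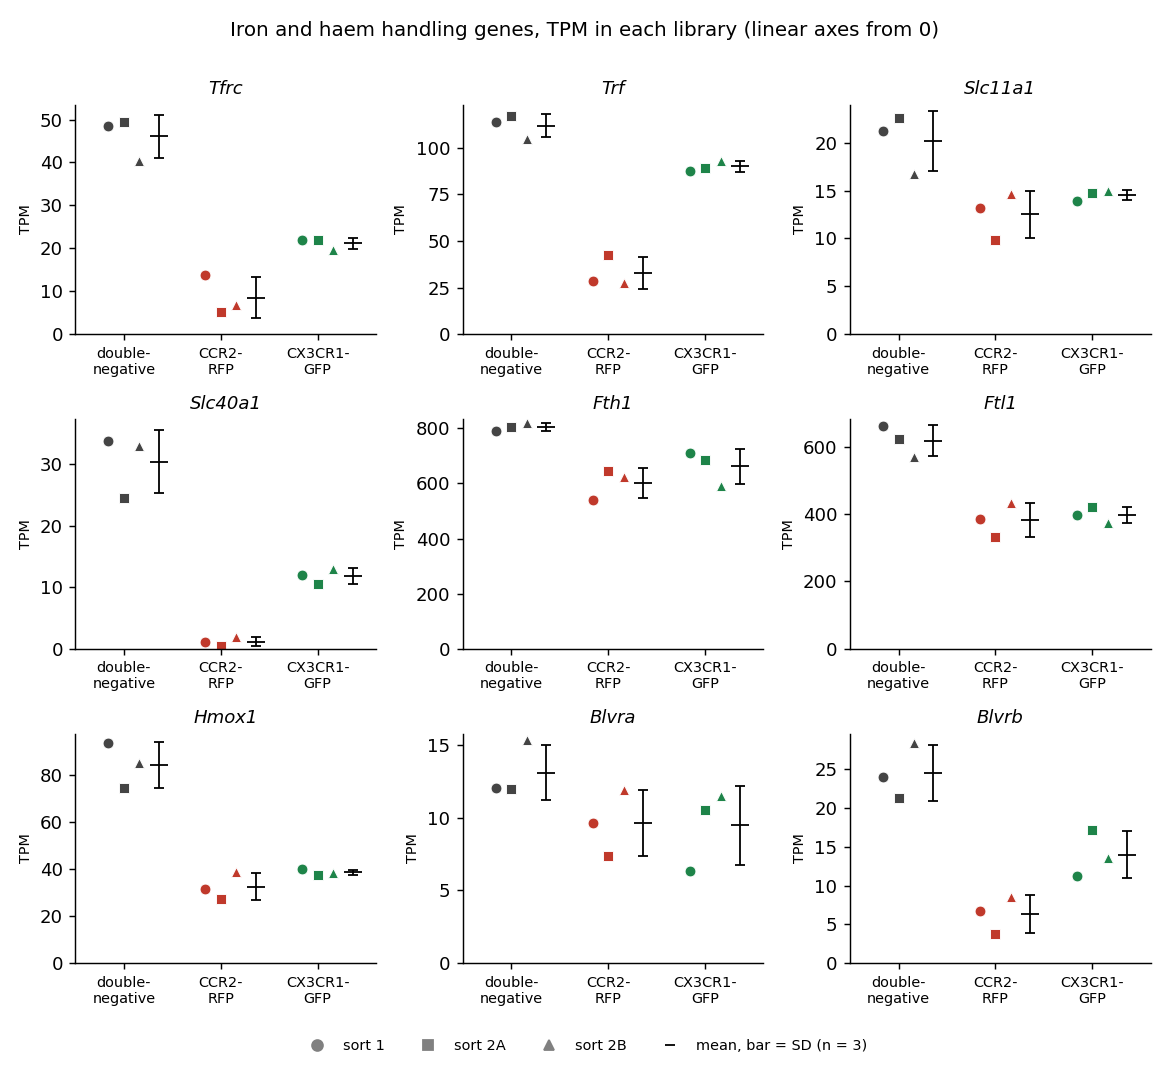
TPM of the 9 genes (vertical axes, linear from 0) in each library of the 3 populations (horizontal axes), with marker shapes for the sorts and the mean with SD beside them. Every double-negative library lies above every CCR2-RFP and CX3CR1-GFP library, and Slc40a1 is at 0.414 to 1.96 TPM in CCR2-RFP cells.

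CX3CR1-GFP cells gave fewer calls against the double-negative population: 3 of the 9 genes, Hmox1, Slc40a1 and Ftl1, were called lower and none higher, where 1.61% of all genes tested were called lower, 1.16% higher and 2.77% in either direction. The median log2 fold change was -0.63, against -0.033 over all genes. All 9 genes had no overlap between the libraries, with CX3CR1-GFP lower, as had 12.9% of genes tested, but this count was 5 when the listed TPM were rescaled to one total, 5 after quantile normalization, 8 after median-of-ratios scaling and 9 after rescaling without mitochondrial genes, ribosomal protein genes and Siglece, an abundant lectin gene. The share of all genes was not counted under these scalings. The number called was 1 when any one double-negative or CX3CR1-GFP library was left out (double-negative 1, 2A or 2B; CX3CR1-GFP 1, 2A or 2B) and 4 without CCR2-RFP 2A; it was 2 without both muscle-rich libraries. Of the 10 macrophage markers 2 were called lower, with a summed level of 1353 to 1744 TPM in CX3CR1-GFP libraries. Against CCR2-RFP cells 4 of the 9, Slc40a1, Trf, Tfrc and Blvrb, were called higher and none lower, where 8.96% of all genes were called higher, 17.3% lower and 26.3% in either direction. The libraries of these 4 did not overlap, as for 14.3% of genes tested with CX3CR1-GFP higher. The number of the 9 without overlap was 7 or 8 under the 4 other scalings, where the share of all genes was not counted. Without the muscle-rich libraries 3 were called. Macrophage markers moved alongside, 9 of 10 being called higher, while 3 of 7 monocyte markers (summed 1013 to 1204 TPM in CX3CR1-GFP cells) were called lower. Also called lower were 2 of 5 mast cell markers (0.0601 to 3.73 against 6.46 to 33.8 TPM) and 4 of 7 dendritic cell markers (3.29 to 4.07 TPM). These 4 dendritic cell genes passed the filter only with CCR2-RFP libraries counted. The part of all these markers in the result was not tested. The 2 comparisons with double-negative cells share those 3 libraries.

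**Figure D2:**
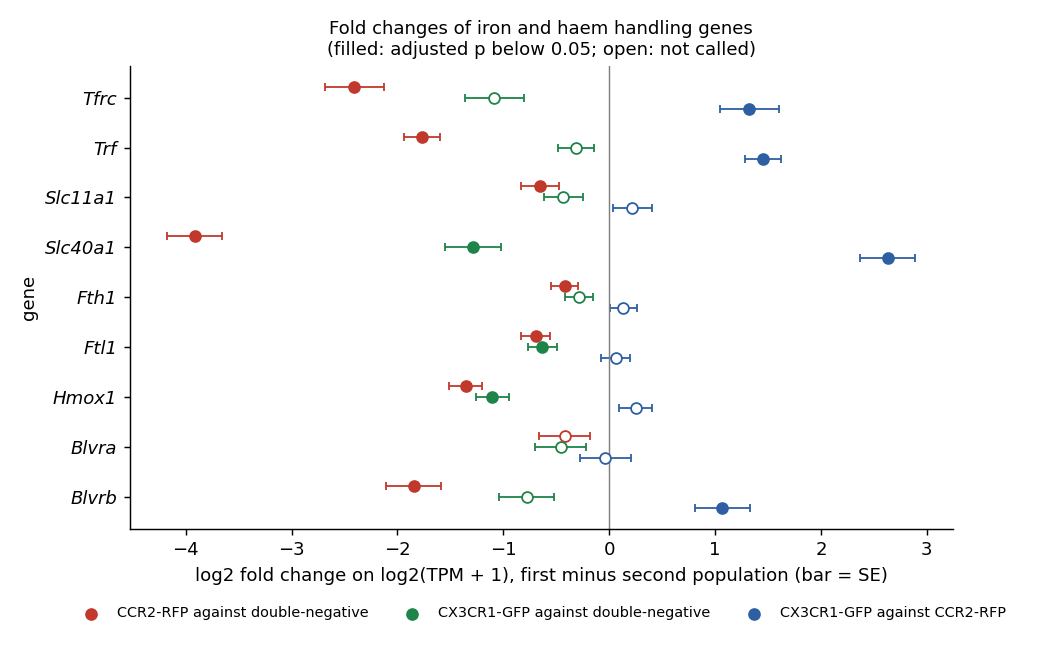
Log2 fold changes on log2(TPM + 1), first minus second population (horizontal axis; bars are SE), for the 9 genes (vertical axis) in the 3 comparisons given by colour. Filled points passed an adjusted p below 0.05, and Slc40a1 has the most negative value, -3.92, in CCR2-RFP against double-negative cells.

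Of the uptake genes, Tfrc (chromosome 16, 32608920 to 32632794), the transferrin receptor, was 48.4, 49.4 and 40.3 TPM in double-negative cells (values are in the order of sorts 1, 2A and 2B throughout). The CCR2-RFP libraries held 13.9, 5.05 and 6.67 TPM and the CX3CR1-GFP libraries 21.8, 21.9 and 19.7 TPM. The 3 populations did not overlap: double-negative libraries were highest, CX3CR1-GFP libraries intermediate and close to each other, and CCR2-RFP libraries lowest, with sort 1 above the others. The fall from 46.1 ± 4.99 TPM in double-negative to 8.52 ± 4.69 TPM in CCR2-RFP cells (SD, n = 3) was -2.41 in log2 fold change (SE 0.28, limma adjusted p = 0.000136). CX3CR1-GFP cells, at 21.1 ± 1.25 TPM, were above CCR2-RFP cells by 1.32 (SE 0.28, limma adjusted p = 0.00599). Their difference of -1.08 (SE 0.28) from double-negative cells was not called at adjusted p = 0.0802, and was called without CCR2-RFP 1 (0.0101) or CCR2-RFP 2A (0.0441), with only the 2 populations compared in the fit (0.0117) and with a pseudocount of 5 (0.0389); its 22 alternatives gave 0.0101 to 0.235.

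Trf (chromosome 9, 103204001 to 103230444, minus strand), the transferrin gene, was 114, 117 and 105 TPM in double-negative libraries, 28.3, 42.6 and 27.6 TPM in CCR2-RFP and 87.5, 89.2 and 93.0 TPM in CX3CR1-GFP libraries. Both sessile populations thus held high levels, without overlap between them in the deposited TPM. The CCR2-RFP libraries lay far below, sort 2A being the highest of these. Against double-negative cells (112 ± 6.36 TPM) CCR2-RFP cells (32.8 ± 8.44 TPM) were lower by a log2 fold change of -1.76 (SE 0.17, limma adjusted p = 3.78e-05). CX3CR1-GFP cells (89.9 ± 2.79 TPM) were higher than CCR2-RFP cells by 1.45 (SE 0.17, limma adjusted p = 0.000154). Their value of -0.31 (SE 0.17) against double-negative cells was not called (limma adjusted p = 0.429), and it ran from -0.36 to -0.060 over 22 alternatives. The annotation places a second coding gene model, Gm20425, on the same strand with 2108 exon bases in common with Trf, so how reads were divided between these models is uncertain; Gm20425 is not analysed here.

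Slc11a1 (chromosome 1, 74375195 to 74386062), the phagosomal metal transporter, varied less. Its levels were 21.2, 22.6 and 16.7 TPM in double-negative, 13.1, 9.80 and 14.6 TPM in CCR2-RFP and 13.9, 14.7 and 15.0 TPM in CX3CR1-GFP libraries. Double-negative libraries were highest, and those of the other two populations overlapped. CCR2-RFP cells were lower than double-negative cells by -0.65 (SE 0.18, limma adjusted p = 0.0243); this call was lost without double-negative 1 (0.0820), double-negative 2A (0.0947), CCR2-RFP 1 (0.0505) or CCR2-RFP 2A (0.0876), and all 22 alternatives gave 0.00504 to 0.0947. In CX3CR1-GFP cells the value was -0.43 (SE 0.18, adjusted p = 0.291) against double-negative and 0.22 (SE 0.18, adjusted p = 0.414) against CCR2-RFP cells.

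The exporter gene Slc40a1 (chromosome 1, 45908068 to 45926523, minus strand) separated the populations most widely of the 9 genes. Its levels were 33.8, 24.6 and 33.0 TPM in double-negative libraries, 1.10, 0.414 and 1.96 TPM in CCR2-RFP and 12.0, 10.4 and 13.0 TPM in CX3CR1-GFP libraries. No 2 populations overlapped: CX3CR1-GFP libraries lay between, and in CCR2-RFP cells the gene was close to the filter of 1 TPM. Mean TPM was 26.3-fold higher in double-negative and 10.2-fold higher in CX3CR1-GFP than in CCR2-RFP cells, and 2.58-fold higher in double-negative than in CX3CR1-GFP cells. Without CCR2-RFP 2B, the highest of its group, the first 2 ratios were 40.2-fold and 15.6-fold. The log2 fold change of CCR2-RFP against double-negative cells was -3.92 (SE 0.26, limma adjusted p = 5.22e-06), from 1.16 ± 0.776 and 30.5 ± 5.11 TPM, and it ran from -4.80 with a pseudocount of 0.1 to -2.52 with a pseudocount of 5, called in all 22 alternatives. CX3CR1-GFP cells (11.8 ± 1.28 TPM) exceeded CCR2-RFP cells by 2.63 (SE 0.26, limma adjusted p = 5.65e-05). They were below double-negative cells by -1.29 (SE 0.26, limma adjusted p = 0.0289), and that call was lost when any one of the 6 libraries compared was left out, from 0.0544 without CX3CR1-GFP 2B to 0.126 without double-negative 2B. It was also lost with a pseudocount of 0.1 (0.150) and with no filter on low values (0.0941).

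Ferritin was the most abundant of these transcripts in every population. Fth1 (chromosome 19, 9980598 to 9985098), the heavy chain with the ferroxidase centre, was 790, 805 and 819 TPM in double-negative, 541, 644 and 624 TPM in CCR2-RFP and 709, 687 and 591 TPM in CX3CR1-GFP libraries. Double-negative libraries were highest and close together, and the other two populations overlapped. Against double-negative cells (805 ± 14.1 TPM) the value for CCR2-RFP cells (603 ± 54.2 TPM) was -0.42 (SE 0.13, limma adjusted p = 0.0377). The call was lost when any one of the 6 libraries was left out, from 0.0543 without CCR2-RFP 2A to 0.133 without CCR2-RFP 1. In CX3CR1-GFP cells (662 ± 62.7 TPM) the value was -0.28 (SE 0.13, adjusted p = 0.336), and it was -0.032 when the listed TPM were rescaled to one total.

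Ftl1 (chromosome 7, 45457944 to 45459884, minus strand), the light chain that aids iron core formation, was 663, 623 and 571 TPM in double-negative, 385, 333 and 433 TPM in CCR2-RFP and 397, 422 and 375 TPM in CX3CR1-GFP libraries. The 2 reporter-positive populations overlapped fully below the double-negative libraries. From 619 ± 46.3 TPM in double-negative cells, CCR2-RFP cells (384 ± 50.3 TPM) were lower by -0.69 (SE 0.14, limma adjusted p = 0.0038) and CX3CR1-GFP cells (398 ± 23.7 TPM) by -0.63 (SE 0.14, limma adjusted p = 0.0381). The second call was lost in 16 of 22 alternatives, among them without any one double-negative or CX3CR1-GFP library (0.0659 without CX3CR1-GFP 2A to 0.163 without double-negative 1), without CCR2-RFP 1 (0.0661), with the sort as a paired block (0.0590), with no filter on low values (0.133) and with only the 2 populations in the fit (0.0625). Of the 4 other scalings 3 lost it: listed TPM rescaled to one total (0.192, log2 fold change -0.38), quantile normalization (0.161) and median-of-ratios scaling (0.0549). Both chains together made up 0.407, 0.441 and 0.405% of the listed TPM in double-negative, 0.252, 0.274 and 0.276% in CCR2-RFP and 0.397, 0.398 and 0.320% in CX3CR1-GFP libraries. That total holds Siglece, at 102783 to 123879 TPM in double-negative, 103398 to 115600 in CCR2-RFP and 61107 to 87908 in CX3CR1-GFP libraries. Without Siglece the shares were 0.623, 0.645 and 0.613%, then 0.360, 0.385 and 0.396%, and 0.508, 0.520 and 0.452%, in the same order. Ferritin genes have near-identical processed copies in the genome; the 5 other symbols starting with Ftl or Fth were listed at 0 to 0.335 TPM, and how reads were divided among copies is uncertain. An unstranded count could also mix Ftl1 with Gm10252, which shares 355 exon bases on the opposite strand and was 2.83 to 18.7 TPM.

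For haem breakdown, Hmox1 (chromosome 8, 75093621 to 75100589), the inducible haem oxygenase, was 93.9, 74.5 and 84.9 TPM in double-negative, 31.7, 27.3 and 38.8 TPM in CCR2-RFP and 39.9, 37.6 and 38.4 TPM in CX3CR1-GFP libraries. Both reporter-positive populations lay between 27.3 and 39.9 TPM, far below the lowest double-negative library, and overlapped each other. The fall was -1.35 (SE 0.16, limma adjusted p = 0.000133) in CCR2-RFP and -1.10 (SE 0.16, limma adjusted p = 0.00471) in CX3CR1-GFP cells. Both calls held in all 22 alternatives. Between the reporter-positive populations the value was 0.25 (SE 0.16, adjusted p = 0.273), and CX3CR1-GFP cells were called higher by 0.61 (0.0116) with listed TPM rescaled to one total, by 0.61 (0.0143) after quantile normalization, and by 0.51 (0.0311) after rescaling without mitochondrial genes, ribosomal protein genes and Siglece.

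Of the biliverdin reductase genes, Blvrb was called in 2 comparisons and Blvra in none; the difference between the genes was not tested. Blvrb (chromosome 7, 27447978 to 27466144), which also reduces flavins, was 24.0, 21.3 and 28.3 TPM in double-negative, 6.67, 3.79 and 8.55 TPM in CCR2-RFP and 11.2, 17.2 and 13.5 TPM in CX3CR1-GFP libraries. The 3 populations did not overlap, in the order double-negative, CX3CR1-GFP, CCR2-RFP. CCR2-RFP cells were below double-negative cells by -1.85 (SE 0.26, limma adjusted p = 0.00047) and CX3CR1-GFP above CCR2-RFP cells by 1.07 (SE 0.26, limma adjusted p = 0.0123), while -0.78 (SE 0.26) in CX3CR1-GFP against double-negative cells was not called (adjusted p = 0.177). Without the muscle-rich CCR2-RFP and CX3CR1-GFP libraries of sort 2A, the Blvrb call between the reporter-positive populations was lost (log2 fold change 0.64, adjusted p = 0.0693).

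Blvra (chromosome 2, 127070665 to 127097084) was 12.1, 12.0 and 15.3 TPM in double-negative, 9.66, 7.35 and 11.9 TPM in CCR2-RFP and 6.37, 10.6 and 11.5 TPM in CX3CR1-GFP libraries. Double-negative libraries were highest by a narrow margin, and the other two populations overlapped. None of its 3 comparisons was called: -0.42 (SE 0.24, adjusted p = 0.252) in CCR2-RFP and -0.46 (SE 0.24, adjusted p = 0.412) in CX3CR1-GFP against double-negative cells, and -0.038 (SE 0.24, adjusted p = 0.928) between the reporter-positive populations.

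Ratios of TPM within a library do not move with its scaling, and 3 were taken as descriptions. Blvrb to Blvra was 1.99, 1.77 and 1.85 in double-negative, 0.690, 0.516 and 0.716 in CCR2-RFP and 1.76, 1.63 and 1.17 in CX3CR1-GFP libraries, so Blvrb was the more abundant of the pair in both sessile populations and Blvra in every CCR2-RFP library. Slc40a1 to Tfrc, exporter over importer, was 0.699, 0.497 and 0.818 in double-negative and 0.551, 0.478 and 0.659 in CX3CR1-GFP libraries, which overlapped. The ratio was 0.0794, 0.0821 and 0.294 in CCR2-RFP libraries, all lower, so the exporter message was reduced by more than the importer message there. Ftl1 to Fth1 was 0.839, 0.774 and 0.697 in double-negative, 0.711, 0.517 and 0.694 in CCR2-RFP and 0.561, 0.615 and 0.635 in CX3CR1-GFP libraries; CX3CR1-GFP libraries lay below all double-negative ones, and CCR2-RFP libraries overlapped both.

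**Figure D3:**
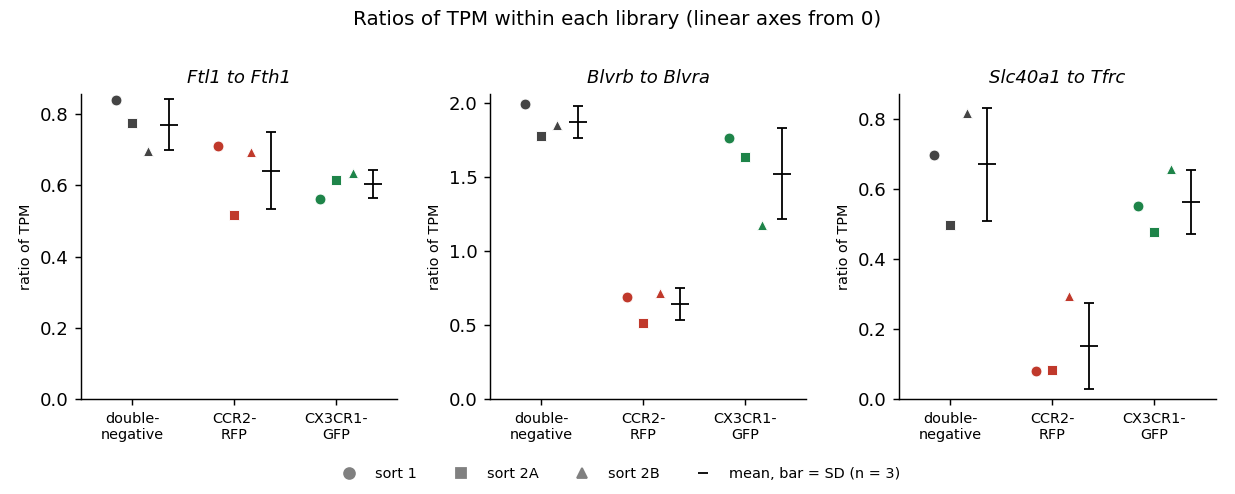
Ratios of TPM within each library (vertical axes, linear from 0) for Ftl1 to Fth1, Blvrb to Blvra and Slc40a1 to Tfrc in the 3 populations, with marker shapes for the sorts and mean with SD. CCR2-RFP libraries are lowest for Blvrb to Blvra (0.516 to 0.716) and for Slc40a1 to Tfrc (0.0794 to 0.294).

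The genes differed in where CX3CR1-GFP cells stood. In the deposited TPM, Slc40a1, Tfrc, Trf and Blvrb had every double-negative library above every CX3CR1-GFP library and these above every CCR2-RFP library. This order was found in 4 of the 9 genes and in 2.24% of genes tested, and was not counted under the other scalings. Hmox1, Ftl1, Fth1, Slc11a1 and Blvra had the reporter-positive populations overlapping. Hmox1, Slc40a1 and Ftl1 were called lower than double-negative cells in both comparisons, as were 0.957% of genes tested. By level per length, Fth1, Ftl1, Trf and Hmox1 ranked in that order in all 3 populations by mean TPM, though Trf and Hmox1 did not differ beyond their spread in CCR2-RFP cells (32.8 ± 8.44 and 32.6 ± 5.83 TPM). Tfrc ranked next in both sessile populations and Slc11a1 in CCR2-RFP cells, where Slc40a1 was last.

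The most similar profiles were found among 4312 genes of at least 5 TPM on average, by the root mean square difference of centred log2(TPM + 1) over the 9 libraries, which share their scaling. Among the closest to Slc40a1 were Fcgrt (0.41), the neonatal Fc receptor gene, and Colec12 (0.42), a scavenger receptor gene. Closest to Trf were Cd163 (0.14), the haemoglobin scavenger receptor gene, Cyp27a1 (0.16), a sterol hydroxylase gene, and Man1a (0.17), a mannosidase gene. Blvrb was closest to Ctsb (0.20), a lysosomal protease gene, Ncoa4 (0.22), whose product carries ferritin to the lysosome, and Wasl (0.24). Tfrc was closest to Slc18b1 (0.25), Selenbp1 (0.27) and Ifi211 (0.27), and Hmox1 to Serpinb6a (0.14), Trappc10 (0.19) and Mtss1 (0.20). Ftl1 was closest to Mgat1 (0.12), Slc11a1 (0.13) and Lrpap1 (0.13), Slc11a1 to Sbno2 (0.12), Ogfrl1 (0.13) and Crtap (0.13), and Fth1 to Malat1 (0.11), Clta (0.12) and Nek7 (0.12).

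Beyond the 9 genes, 70 further symbols of iron and haem handling were looked up. The expression table listed 67 of them, and 46 of these genes passed the filter. In CCR2-RFP against double-negative cells 1 was higher and 12 lower, or 2.17% higher and 26.1% lower, against 14.9% and 9.88% of all genes. None was called in CX3CR1-GFP against double-negative cells by limma (2 higher and 4 lower at an unadjusted p below 0.05). Only 2.77% of all genes were called in that comparison. Between the reporter-positive populations 9 were higher and 9 lower in CX3CR1-GFP cells, or 19.6% each way, against 8.96% higher and 17.3% lower of all genes. Their median log2 fold changes were -0.023, -0.11 and 0.063 in that order, against 0.086, -0.033 and -0.11 over all genes.

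Cp and Ncoa4 ran in the direction of Slc40a1. Cp, the ferroxidase ceruloplasmin that loads exported iron onto transferrin, was 23.0 ± 3.52, 1.65 ± 0.691 and 13.4 ± 5.70 TPM in double-negative, CCR2-RFP and CX3CR1-GFP cells, with a log2 fold change of -3.20 (limma adjusted p = 3.33e-05) in CCR2-RFP against double-negative and 2.41 (limma adjusted p = 0.000238) in CX3CR1-GFP against CCR2-RFP cells. The other ferroxidase genes Heph and Hephl1 and the hepcidin genes Hamp and Hamp2 were too low to test. Ncoa4 was 68.5 ± 8.38, 20.1 ± 3.76 and 41.1 ± 10.7 TPM (-1.72, limma adjusted p = 0.000204 in CCR2-RFP against double-negative cells). The iron chaperone gene Pcbp2, which delivers iron to ferritin, went the other way, at 36.8 ± 4.22, 61.4 ± 13.0 and 37.2 ± 6.06 TPM (0.71, limma adjusted p = 0.0201), and was the 1 gene called higher in the CCR2-RFP population in that comparison. That call was lost with listed TPM rescaled to one total, after quantile normalization and after rescaling without mitochondrial genes, ribosomal protein genes and Siglece. It was also lost with no filter on low values and without double-negative 1, double-negative 2A, CCR2-RFP 2A or CCR2-RFP 2B. Pcbp1 was lower in CX3CR1-GFP than in CCR2-RFP cells (-0.52, limma adjusted p = 0.03).

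Uptake genes were mixed. Cd163 was 154 ± 4.02, 46.6 ± 4.19 and 131 ± 11.2 TPM in the 3 populations (-1.71, limma adjusted p = 8.78e-06 in CCR2-RFP against double-negative cells). Slc46a1, the folate and haem transporter gene, and Abcg2, a haem and porphyrin efflux pump gene, were also lower in CCR2-RFP cells, at -0.78 (limma adjusted p = 0.0157) and -1.23 (limma adjusted p = 0.0193). Slc46a1 was near the filter of 1 TPM, at 0.231 ± 0.161 TPM in CCR2-RFP and 1.10 ± 0.0997 TPM in double-negative cells, and no CCR2-RFP library reached it. Slc48a1, which encodes the haem transporter of the phagolysosome, was highest in CCR2-RFP cells by mean: it was 13.6 ± 1.29 TPM in CCR2-RFP, 6.17 ± 1.57 in double-negative and 4.25 ± 2.81 in CX3CR1-GFP cells (6.21, 1.03 and 5.53 TPM, lowest in the muscle-rich library), and was lower in CX3CR1-GFP than in CCR2-RFP cells by -1.67 (limma adjusted p = 0.014). Its value of 1.05 in CCR2-RFP against double-negative cells was not called (adjusted p = 0.0994). Of 6 further import genes tested, Steap4 and Mcoln1 were lower in CCR2-RFP cells with double-negative cells as the reference, and none was higher. That is 33.3% called, where 24.8% of all genes were called in either direction and 9.88% lower. Mcoln1, the lysosomal cation channel gene that lets iron out of the lysosome, had a log2 fold change of -0.88 (limma adjusted p = 0.00389). In CX3CR1-GFP against CCR2-RFP cells Slc39a8 and Mcoln1 were higher, and Steap3, the endosomal iron reductase gene, and Slc39a14 were lower. That is 66.7% of the 6 called, against 26.3% of all genes. The values were 1.30 for Slc39a8, at 1.77 ± 0.952 and 0.0802 ± 0.0539 TPM, and -1.04 for Steap3. Slc39a8 passed the filter of 1 TPM without any CCR2-RFP library. Slc39a14 was 0.770 ± 0.220 TPM in CX3CR1-GFP and 2.27 ± 0.757 TPM in CCR2-RFP cells. It passed the filter only with CCR2-RFP libraries counted, so the filter itself favoured that call.

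Of the 6 haem- and oxidant-responsive regulators tested, 2 were called lower in CCR2-RFP against double-negative cells, and 1 was higher and 1 lower in CX3CR1-GFP against CCR2-RFP cells, or 33.3% in each, against 24.8% and 26.3% of all genes. Spic, a transcription factor gene known for its role in red pulp macrophages, was 3.02 ± 0.635, 0.163 ± 0.0663 and 4.84 ± 1.38 TPM in double-negative, CCR2-RFP and CX3CR1-GFP cells (-1.78, limma adjusted p = 0.000255 in CCR2-RFP against double-negative and 2.30, limma adjusted p = 5.6e-05 in CX3CR1-GFP against CCR2-RFP cells). No CCR2-RFP library of Spic reached the filter of 1 TPM, so it passed only through the populations where it was higher. Bach1, the haem-sensing repressor of Hmox1, was 24.8 ± 2.23, 32.9 ± 3.87 and 23.8 ± 1.71 TPM, lower in CX3CR1-GFP than in CCR2-RFP cells (-0.44, limma adjusted p = 0.0477). Mafg, a partner of Bach1 on DNA, was lower in CCR2-RFP cells relative to double-negative cells (-0.65, limma adjusted p = 0.0459). Of the 6 haem synthesis genes tested none was called by limma in any comparison; Fech, which inserts the iron, was 4.69 ± 0.715, 4.65 ± 0.916 and 4.54 ± 0.934 TPM. The iron regulatory protein gene Ireb2 was 11.1 ± 1.02, 11.1 ± 1.19 and 16.3 ± 9.68 TPM and was not called; the CX3CR1-GFP libraries were 10.9, 27.4 and 10.4 TPM, and their mean without the muscle-rich sort 2A library was 10.7 TPM. Aco1 was lower in CX3CR1-GFP than in CCR2-RFP cells (-0.65, limma adjusted p = 0.0179). Of 11 mitochondrial iron and iron-sulphur cluster genes, 1 fell in CCR2-RFP cells relative to double-negative cells (Slc25a28, a mitochondrial iron importer gene, -0.83, limma adjusted p = 0.0271). A further 2, Iscu and Lyrm4, were lower in CX3CR1-GFP than in CCR2-RFP cells. These are 9.09% and 18.2% of the list, against 24.8% and 26.3% of all genes called.

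Of the 9 symbols looked up for hepcidin and BMP signalling, 8 were in the expression table and 2 could be tested. Bmp2, a BMP ligand gene of the family that induces hepcidin in liver, was 8.65 ± 1.69, 0.856 ± 0.538 and 8.23 ± 2.44 TPM (-2.41, limma adjusted p = 0.000137 in CCR2-RFP against double-negative cells, and 2.33, limma adjusted p = 0.000192 in CX3CR1-GFP against CCR2-RFP cells). Hfe, the haemochromatosis gene, was not called in any comparison. Slc22a17, a lipocalin receptor gene, was lower in CCR2-RFP cells relative to double-negative cells (-0.66, limma adjusted p = 0.0336). Its levels were near the filter of 1 TPM, at 0.376 ± 0.164 and 1.18 ± 0.329 TPM, and no CCR2-RFP library reached it. The iron-binding genes Lcn2 and Ltf were too low to test. Globin RNA was nearly missing: the 6 globin genes were listed at 0 to 1.51 TPM in all 9 libraries. The summed level of the 10 erythroid markers was 4.68 to 7.41 TPM in double-negative, 0.284 to 0.565 in CCR2-RFP and 3.03 to 3.65 in CX3CR1-GFP cells, most of it from Epor, the erythropoietin receptor gene, in double-negative and CX3CR1-GFP libraries.

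**Figure D4:**
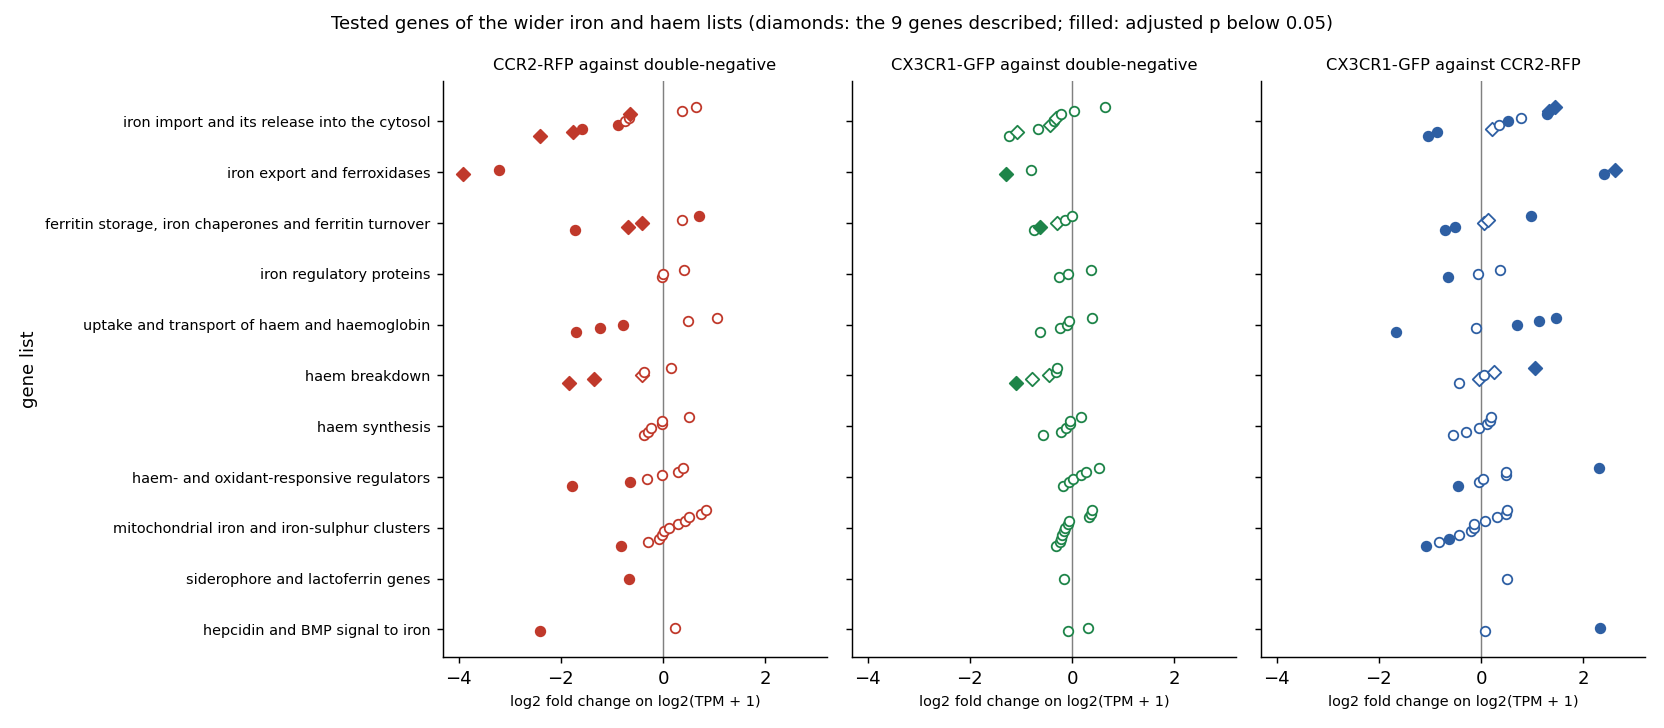
Log2 fold changes on log2(TPM + 1) (horizontal axes) of the 55 tested genes in 11 lists of iron and haem handling (vertical axis), one panel per comparison. Diamonds are the 9 genes described, circles the other 46, and filled symbols passed an adjusted p below 0.05; 12 of the 46 are filled below 0 and 1 above 0 in CCR2-RFP against double-negative cells, and none in CX3CR1-GFP against double-negative cells.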

How the data were processed

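RNA of 9 sorted libraries was measured. The authors deposited TPM per gene symbol. The submitters' processing notes name bcl2fastq 2.18, cutadapt 1.8.3, Salmon 0.11.3 and mm10; annotation, transcript summing and strand are not given in those notes. Listed values sum to less than a full TPM library, and what is not listed also moves the scale. Depth is unknown.

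Libraries were grouped by title, which matches the column headings. A limma 3.58.1 fit in R 4.3.3 used log2(TPM + 1) (a mean per population over all 9 libraries, moderated variance with intensity trend, two-sided contrasts), for the 10136 genes that reached 1 TPM in 3 or more libraries, with Benjamini-Hochberg adjustment over all of them. The script was tested on simulated data. The 9 genes, the lists and the tests were chosen with earlier results of these data known. Beside all 9 genes, the text names up to 3 called genes per list and comparison, by smallest p. Where none was called, it names the tested gene with the highest mean. Steap4, Slc39a14, Heph, Hephl1, Hamp, Hamp2, Lcn2, Ltf, Epor and Zbtb46 were added after their values were seen. One gene that the rule for similar profiles names is not reported here. Coordinates are from GENCODE M21 (GRCm38), which held 85.9% of the symbols.

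The design text states that 3 mice were sorted into the populations, so the sort labels were read as animals, as a paired alternative. Deviations of same-numbered libraries from their population means correlated at r = 0.0315 to 0.205 over genes. Other alternatives were the pseudocount, the filter, 4 scalings, 2 populations at a time, no trend, a minimum fold of 2 and the omission of each library in turn; leaving out the muscle-rich libraries of sort 2A was chosen after seeing the data.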

Additional observations from a re-analysis of the deposited data

How the results depend on the processing

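For CCR2-RFP against double-negative cells the 8 genes called were 6 to 8 when each library was left out and 5 with a minimum fold of 2; Slc40a1, Tfrc, Trf, Blvrb and Hmox1 were called in all 22 alternatives. For CX3CR1-GFP against double-negative cells the 3 called were 1 to 4 when each library was left out and 1 with no filter on low values. Between the reporter-positive populations the 4 called were 8 with listed TPM rescaled to one total, which moved the median log2 fold change of all genes from -0.11 to 0.17 there, and from -0.033 to 0.16 for CX3CR1-GFP against double-negative cells. Rescaling without mitochondrial genes, ribosomal protein genes and Siglece moved it from 0.086 to -0.074 for CCR2-RFP against double-negative cells. Of the genes in the 11 lists, 55 were tested with the filter and 75 with no filter. The 21 called in CCR2-RFP against double-negative cells were 12 with no filter and 12 with a fold of at least 2. The 3 called for CX3CR1-GFP relative to double-negative cells were 1 with no filter and 1 to 4 when each library was left out. The 22 called between the reporter-positive populations were 14 with no filter and 13 with a fold of at least 2. They were 11 (without CCR2-RFP 2B) to 20 when each library was left out. Over all genes tested, the share called fell from 24.8, 2.77 and 26.3% to 7.84, 0.569 and 8.19% with no filter, in that order of comparisons. With a fold of at least 2 the share was 14.4, 2.05 and 14.9%. The cause was not tested.

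Blvra and Ftl1, neither called as deposited, changed sign between the reporter-positive populations. Blvra was 0.11 after median-of-ratios scaling, 0.29 with listed TPM rescaled to one total, 0.20 without mitochondrial genes, ribosomal protein genes and Siglece, 0.19 after quantile normalization, 0.11 without CCR2-RFP 2B and 0.20 without CX3CR1-GFP 1; omitting each library in turn gave -0.20 to 0.20. Ftl1 was -0.038 without CCR2-RFP 2A, the lowest on omitting each library in turn (highest 0.15), and -0.081 without both reporter-positive libraries of sort 2A. With the sort as a replicate block, 8, 2 and 4 genes were called in the 3 comparisons, and the Ftl1 call in CX3CR1-GFP cells was the 1 lost. Of 594 fold changes recomputed for the 9 genes, 533 kept their direction and their side of the threshold.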
